A study of Homo sapiens with 6 samples.

Results

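The integrated stress response was followed through 31 genes in SW839 cells, an established line of renal cell carcinoma, after knockdown of the E3 ubiquitin ligase RNF25. The 31 genes are the kinases, factors and ATF4 targets of a list of symbols, they were taken by symbol from a table of 30267 genes, and all 31 had a row. Total RNA depleted of ribosomal RNA was sequenced from 3 libraries labelled shRNF25, which carry an shRNA against RNF25, and from 3 libraries labelled shControl, which carry the pLKO vector. The series describes the libraries as biological triplicates, all from SW839 cultures in medium with 10% fetal bovine serum, and the library names of the knockdown arm hold 1 hairpin name. The treatment text of the control samples also speaks of the RNF25 plasmid, so the groups rest on titles, genotype labels and library names. The study compared the groups to learn how RNF25 acts in these cells, with NF-κB signalling and apoptosis as its subject.

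The integrated stress response is the program by which cells slow protein synthesis when amino acids run short, when unfolded proteins gather in the endoplasmic reticulum, or when heme or mitochondrial function fails. A small family of kinases, among them PERK (EIF2AK3), GCN2 (EIF2AK4) and HRI (EIF2AK1), phosphorylates the α subunit of the initiation factor eIF2, and translation of most mRNAs then falls while that of ATF4 mRNA rises. ATF4 is thus controlled mainly at translation, and its protein was not measured here. With C/EBP partners it switches on genes for amino acid synthesis and import, for redox balance and, under lasting stress, for cell death, so that the mRNAs of these targets are a common readout of the pathway.

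RNF25 itself had normalized counts of 694.2, 533.5 and 536.4 in shControl replicates 1, 2 and 3 and of 214.1, 245.7 and 265.0 in shRNF25 replicates 1, 2 and 3, a log2 fold change of -1.27 with a standard error (SE) of 0.15 (adjusted p = 0.000585, limma). The libraries held 18647460 to 19943154 reads on genes. A normalized count is a read count divided by a scaling factor of its library. These factors were 0.9046 to 0.9746 in shControl and 1.049 to 1.097 in shRNF25. A log2 fold change is a difference of group means of log2(normalized count + 1), shRNF25 minus shControl. A gene is called past the threshold at a Benjamini-Hochberg adjusted p below 0.05 from limma over 16554 tested genes. For a single gene, 3 libraries against 3 cannot give a p below 0.1 in an exact permutation test. Of the renal markers, KRT8, KRT18, PAX8 and VIM passed the filter on low values, CA9 stayed between 1.85 and 50.7 normalized counts, and PAX2 and LRP2 were not in the table used here. The summed counts of 4 leukocyte markers were 16.2 to 22.6 in shControl and 11.4 to 22.8 in shRNF25, and those of 4 fibroblast markers 17.4 to 33.5 and 23.8 to 29.2. The 4 endothelial markers summed to 466.8 to 681.0 and 413.7 to 558.6, and among them CDH5 had 73.0 to 198.6 in shControl and 3.64 to 8.31 in shRNF25, while the renal and mesenchymal marker VIM rose by 1.31 (log2). The part of these markers in the results was not tested.

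Knockdown of RNF25 was accompanied by changes in both directions within the program. The 3 enzymes that make serine from a glycolytic intermediate (PHGDH, PSAT1 and PSPH), the pseudokinase gene TRIB3 and the stress factor gene NUPR1 rose, by 1.32-fold (PSPH) to 2.43-fold (NUPR1). DDIT4, the hormone gene STC2 and the phosphatase subunit gene PPP1R15B fell, to 20.7%, 45.6% and 75.5% of the control mean. The mRNAs of ATF4, DDIT3, eIF2α and the 3 kinases of the list did not pass the threshold. These 8 calls are 26.7% of the tested members, beside 21.3% of all tested genes. Of the 8, 5 lost the call in at least 1 of 16 alternative analyses, among them TRIB3 and the 3 serine enzymes.

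Of the 31 genes, 30 had enough reads to be tested and 1, VLDLR, did not. Among the 30, 5 were higher and 3 were lower past the threshold, in an experiment in which 10.5% of all tested genes were higher and 10.8% lower. With the fold change of at least 1.5 that the study also required, 3 were higher (NUPR1, PHGDH, PSAT1) and 2 lower (DDIT4, STC2), beside 8.65% and 7.10% of all tested genes. The median log2 fold change of the 30 was 0.06, and that of all tested genes -0.01. Separation of the groups without overlap was seen for 14 of the 30 members, which is 46.7%, and for 42.5% of all tested genes. Of the 22 members not called, 15 had a 95% interval of the log2 fold change that lay wholly within a 1.5-fold change in either direction.

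**Figure D1:**
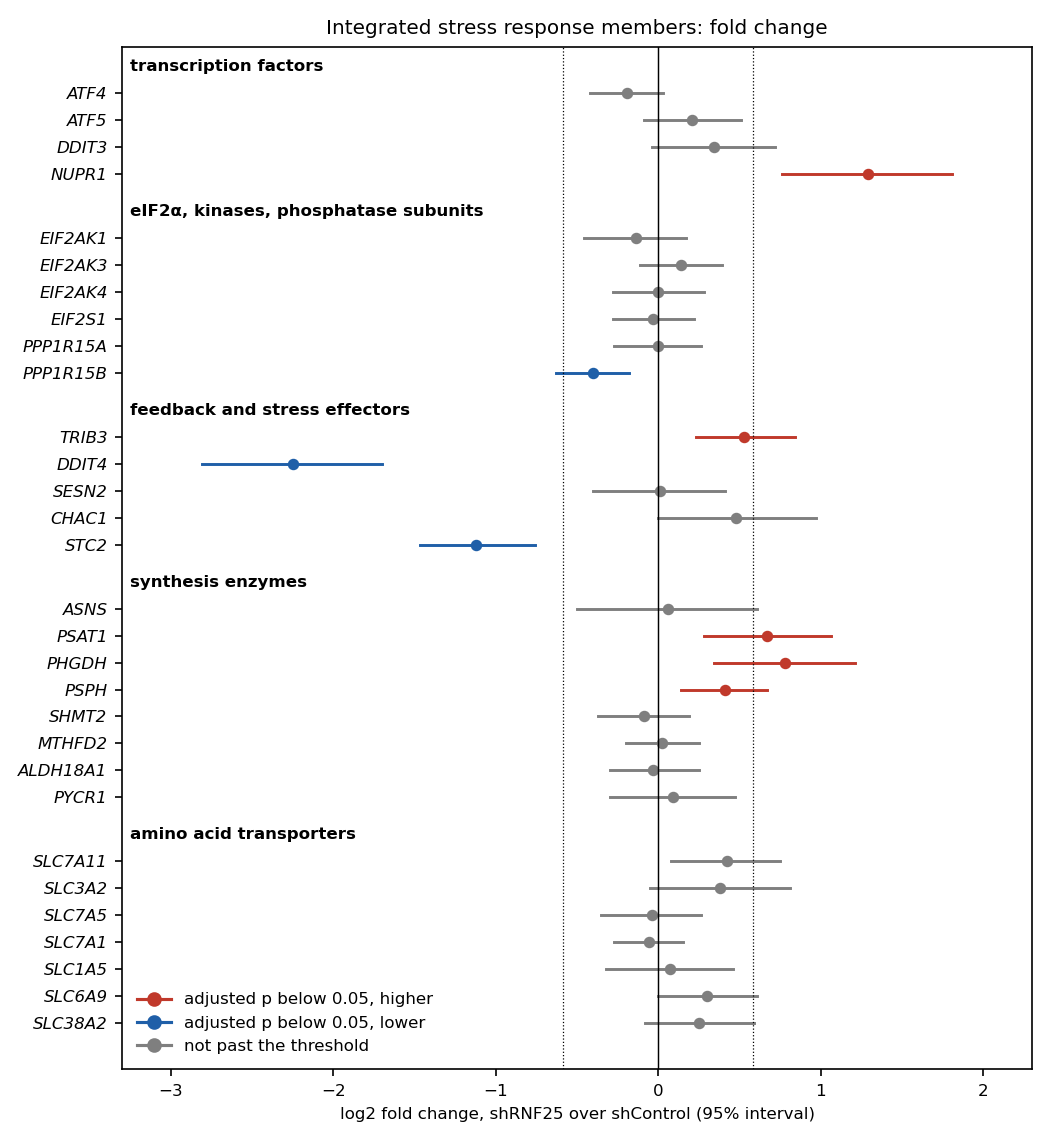
Log2 fold change (shRNF25 over shControl, horizontal axis) of the 30 tested members by role, with limma's 95% interval; red marks higher and blue lower past an adjusted p of 0.05, and dotted lines mark a 1.5-fold change. DDIT4 at -2.25 and NUPR1 at 1.29 lie farthest out, and the 7 amino acid transporters are all grey.

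The number of calls depended on the libraries. Without shControl replicate 1, the higher members numbered 8 and the lower members 3, beside 15.8% and 18.0% of all tested genes. Without any 1 of the shRNF25 libraries, 1 member was higher and 2 were lower, beside 4.64% to 5.15% and 5.20% to 5.28% of all genes. DDIT4, STC2 and NUPR1 stayed past the threshold in all 16 alternative analyses, with largest adjusted p-values of 0.00392, 0.0123 and 0.0313.

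The start of the pathway was examined first. EIF2S1 encodes the α subunit of eIF2, the protein that the stress kinases phosphorylate. Its normalized counts were 4507, 4752 and 3862 in shControl and 4076, 4370 and 4353 in shRNF25, and the shRNF25 values lay inside the control range. Its log2 fold change was -0.03 with a 95% interval of -0.28 to 0.22 (adjusted p = 0.869, limma).

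EIF2AK1 encodes HRI, the kinase that senses heme shortage and relays mitochondrial stress. Its counts were 6171, 4470 and 4454 in shControl and 4351, 4617 and 4525 in shRNF25, so that shControl replicate 1 stood above the other 5 libraries. EIF2AK3 encodes PERK, the kinase of the endoplasmic reticulum. It had 347.1, 343.7 and 370.2 in shControl and 381.8, 394.3 and 392.7 in shRNF25, and these groups did not overlap although the difference of 0.14 (log2) was small. EIF2AK4 encodes GCN2, which senses uncharged tRNA, and it had 3944, 3508 and 2919 in shControl and 3355, 3431 and 3524 in shRNF25. None of the 3 kinase genes passed the threshold, with adjusted p-values from limma of 0.489, 0.410 and 0.994. The 95% intervals of their log2 fold changes ran from -0.46 to 0.17, from -0.11 to 0.39 and from -0.28 to 0.28.

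PPP1R15A (GADD34) and PPP1R15B (CReP) are the regulatory subunits that direct protein phosphatase to eIF2α, the first induced by stress and the second present in resting cells. PPP1R15B (chr1:204403387-204411791, minus strand, here and for the genes that follow from GENCODE 29 on GRCh38) had 2405, 2220 and 2480 in shControl and 1731, 1830 and 1801 in shRNF25, and every shRNF25 library lay below every control. Its log2 fold change was -0.40 (SE 0.0988, adjusted p = 0.0191, limma), and it missed the threshold at 0.0512 after quantile normalization and at 0.106, 0.0845 and 0.0962 without shRNF25 replicate 1, 2 or 3. PPP1R15A had 3125, 3379 and 4029 in shControl and 3479, 3608 and 3362 in shRNF25, with an adjusted p of 0.987 (limma). The PPP1R15B counts divided by the PPP1R15A counts of the same library, a ratio that no scaling can change, had log2 values of -0.38, -0.61 and -0.70 in shControl and -1.01, -0.98 and -0.90 in shRNF25. The ratio was thus lower in all 3 shRNF25 libraries, by 0.40 on the log2 scale. This pair, like the 2 other ratios given here, was chosen after the values had been seen, so the ratios are descriptions with no test.

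Among the transcription factors, ATF4 (chr22:39519695-39522685, plus strand) is the central one. Its counts were 7104, 7654 and 6975 in shControl and 6708, 6203 and 6105 in shRNF25. Under the deposited scaling all shRNF25 libraries lay below all controls, yet the log2 fold change of -0.19 did not pass the threshold (adjusted p = 0.202, limma). Before scaling, the ATF4 reads were 6426, 7460 and 6463 in shControl and 7362, 6717 and 6405 in shRNF25, and the groups overlapped. The 95% interval ran from -0.42 to 0.03 under the deposited scaling. The log2 fold change was -0.13 after rescaling on the median ratio and -0.009 after quantile normalization, so its size depended on the scaling. Of the 50-base words of the longest coding ATF4 transcript, 22.9% also occur in ATF4 pseudogenes, and how reads with several matches were counted is not given in the sources used here.

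DDIT3 encodes CHOP, the ATF4-induced factor tied to cell death under lasting stress. It had 151.4, 218.5 and 213.7 normalized counts in shControl and 257.0, 232.7 and 240.2 in shRNF25. In GENCODE 29, AC022506.1 shares 105 exonic bases with it on the same strand. The groups did not overlap, the log2 fold change was 0.34 with an interval of -0.04 to 0.72, and the adjusted p of 0.184 (limma) missed the threshold. Without shControl replicate 1, the lowest library, the log2 fold change of DDIT3 was 0.17. ATF5, a related factor under similar translational control, had 1034, 824.9 and 839.7 in shControl and 916.7, 1075 and 1133 in shRNF25, with overlap between the groups and an adjusted p of 0.286 (limma). Its log2 fold change was 0.21, and 0.32 without shControl replicate 1 (adjusted p = 0.0341, limma), the only alternative in which it passed.

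NUPR1 (chr16:28532708-28539174, minus strand), a small chromatin-associated protein induced by many stresses, was the one factor of the list that passed. Its counts were 80.7, 114.9 and 140.3 in shControl and 343.5, 230.9 and 242.1 in shRNF25. The lowest shRNF25 library lay above the highest control, and the log2 fold change was 1.29 (SE 0.232, adjusted p = 0.00479, limma). Its means were 112.0 ± 29.9 (SD, n = 3) and 272.2 ± 62.0 (SD, n = 3).

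**Figure D2:**
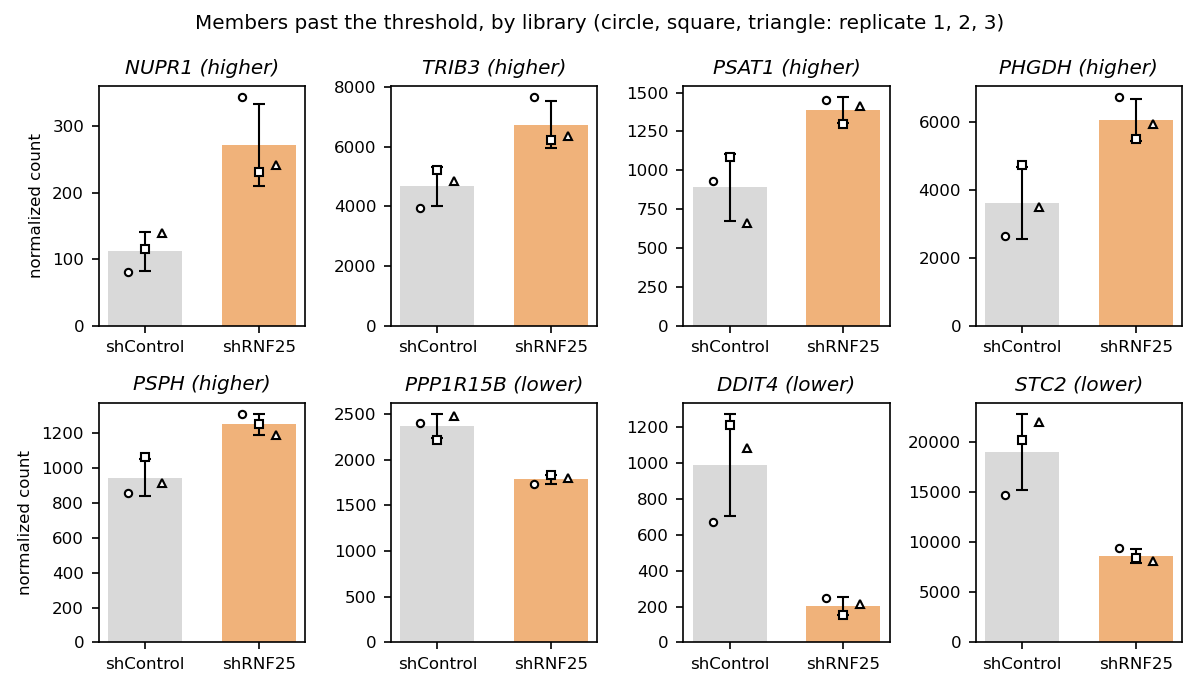
Normalized count (vertical axis, from 0) of the 8 members past the threshold in each library; bars show the mean, whiskers the SD (n = 3), and circle, square and triangle replicate 1, 2 and 3. In none of the 8 genes do the points of the groups overlap, and the control points are spread most, relative to their mean, for PHGDH and DDIT4.

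The targets that act as feedback or stress effectors split in direction. DDIT4, also called REDD1 (chr10:72273920-72276036, plus strand), restrains the growth kinase complex mTORC1 and is known to respond to hypoxia and glucocorticoids as well as to ATF4. It had 669.9, 1215 and 1084 normalized counts in shControl and 249.7, 150.5 and 213.5 in shRNF25. The highest shRNF25 library held fewer than the lowest control, and the log2 fold change of -2.25 (SE 0.248, adjusted p = 0.000422, limma) was the farthest from 0 among the members. In GENCODE 29, DDIT4-AS1 overlaps 847 exonic bases of DDIT4 on the other strand, as other genes do for several members, and the strand setting of the counting is not given in the sources used here.

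STC2 (chr5:173314713-173329503, minus strand), a secreted glycoprotein hormone of calcium and phosphate balance that is induced by endoplasmic reticulum stress and by hypoxia, had 14702, 20171 and 21995 in shControl and 9419, 8394 and 8103 in shRNF25. Its log2 fold change was -1.12 (SE 0.156, adjusted p = 0.00143, limma), and the groups lay far apart. TRIB3 (chr20:362835-397559, plus strand) is a pseudokinase that is induced by ATF4 and CHOP and in turn damps them. It had 3952, 5219 and 4841 in shControl and 7651, 6222 and 6353 in shRNF25, a log2 fold change of 0.53 (SE 0.136, adjusted p = 0.0230, limma). Each shRNF25 library was above each control, and shRNF25 replicate 1 was the highest of all. TRIB3 missed the threshold without shRNF25 replicate 1, 2 or 3, with adjusted p-values of 0.119, 0.0608 and 0.0714 (limma). The log2 ratio of TRIB3 to ATF4 within a library was -0.85, -0.55 and -0.53 in shControl and 0.19, 0.00 and 0.06 in shRNF25. Under the deposited scaling TRIB3 was higher and ATF4 lower in shRNF25, each without overlap. The separation of this ratio thus follows from the choice of the pair. Its size, 0.73 on the log2 scale, restates the difference between the log2 fold changes of TRIB3 and ATF4.

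CHAC1, which degrades glutathione, had 313.9, 518.1 and 576.3 in shControl and 726.2, 574.4 and 613.9 in shRNF25. The groups overlapped by the position of a single pair of libraries, and its log2 fold change of 0.48 had an adjusted p of 0.145 (limma). The value rested in part on shControl replicate 1, since CHAC1 had 0.22 without it and 0.65 without shControl replicate 3. SESN2, a leucine sensor that restrains mTORC1, had a log2 fold change of 0.01 with an interval of -0.40 to 0.41 and overlapping groups. VLDLR, a lipoprotein receptor, had 4.42, 7.18 and 22.7 in shControl and 6.38, 6.46 and 12.4 in shRNF25, too few for the test, and its groups overlapped.

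Serine is made from 3-phosphoglycerate in 3 steps, by PHGDH, PSAT1 and PSPH in that order, and all 3 genes rose. PHGDH, the entry enzyme (chr1:119648411-119744226, plus strand), had 2634, 4730 and 3496 normalized counts in shControl and 6714, 5501 and 5937 in shRNF25. PSAT1, the transaminase of the middle step (chr9:78297143-78330093, plus strand), had 930.8, 1086 and 658.4 in shControl and 1453, 1297 and 1413 in shRNF25. PSPH, the final phosphatase (chr7:56011051-56051604, minus strand), had 855.6, 1066 and 915.2 in shControl and 1309, 1254 and 1189.6 in shRNF25. For each enzyme every shRNF25 library lay above every control, and the control values were the more scattered ones. The log2 fold changes were 0.78 for PHGDH (SE 0.193, adjusted p = 0.0203, limma), 0.67 for PSAT1 (SE 0.173, adjusted p = 0.0246) and 0.41 for PSPH (SE 0.117, adjusted p = 0.0364).

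These 3 calls were less firm than those of DDIT4, STC2 and NUPR1. PHGDH missed the threshold without shRNF25 replicate 1, 2 or 3 (adjusted p = 0.0990, 0.0511 and 0.0711, limma), and so did PSAT1 (0.108, 0.0671 and 0.0951) and PSPH (0.160, 0.138 and 0.107). PSPH also missed it without shControl replicate 3 (0.0620) and with no filter on low values (0.0550). No alternative turned the direction of any of the 3. Of the 50-base words of the longest coding transcript, 8.36% for PSPH and 4.72% for PSAT1 recur in other genes, PSPHP1 and PSAT1 pseudogenes first, against 0% for PHGDH.

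The enzymes that use serine further on gave a flat picture. SHMT2, which passes a carbon from serine to folate in mitochondria, had 5402, 7279 and 6472 in shControl and 6117, 5828 and 5890 in shRNF25. MTHFD2, the next mitochondrial folate enzyme, had 2344, 2327 and 2326 in shControl, the tightest control group of the members, and 2584, 2277 and 2259 in shRNF25. Neither passed the threshold, with 95% intervals of the log2 fold change from -0.37 to 0.19 for SHMT2 and from -0.20 to 0.25 for MTHFD2. The log2 ratio of PHGDH to SHMT2 within a library was -1.04, -0.62 and -0.89 in shControl and 0.13, -0.08 and 0.01 in shRNF25. The groups did not overlap in this ratio, and the mean shift was 0.87 on the log2 scale. ALDH18A1 and PYCR1, the first and last enzymes of proline synthesis from glutamate, had log2 fold changes of -0.03 and 0.09 with overlapping groups.

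ASNS (chr7:97852118-97872542, minus strand), asparagine synthetase and a classical ATF4 target, had 91.8, 55.4 and 65.8 normalized counts in shControl and 88.4, 75.7 and 56.2 in shRNF25. The groups overlapped, and the 95% interval of the log2 fold change was wide, from -0.50 to 0.61. Its level cannot be read at face value. In GENCODE 29 another gene on the same strand, AC079781.5, shares 1985 exonic bases with ASNS, and 82.0% of the 50-base words of the longest coding ASNS transcript occur in transcripts of other genes. AC079781.5 had 7.74, 4.10 and 4.32 in shControl and 38.3, 27.7 and 23.8 in shRNF25, a log2 fold change of 2.29 (SE 0.341, adjusted p = 0.00195, limma). That gene was thus higher in all shRNF25 libraries, and the assignment of reads that fit both genes is not given in the sources used here.

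Of the 7 amino acid transporter genes, 0 passed the threshold with limma, and edgeR and DESeq2 also called 0. With limma, 21.3% of all tested genes were called, and a list of 7 genes is small beside that share. At an unadjusted p below 0.05 limma had 1, SLC7A11, and the share of all tested genes at that level was not counted. SLC7A11 is the cystine importer xCT, which feeds glutathione synthesis. It had 823.6, 694.6 and 958.4 in shControl and 1265, 1038 and 997.0 in shRNF25, without overlap, and its log2 fold change was 0.42 (SE 0.149, adjusted p = 0.0759, limma). It passed after quantile normalization (0.0459), without shControl replicate 1 (0.0492) and without shControl replicate 3 (0.0331), and its largest adjusted p over the 16 alternatives was 0.289. SLC7A11-AS1, which overlaps 865 exonic bases on the other strand, had counts of only 8.21 to 19.1.

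SLC3A2 (4F2hc) is the heavy chain that carries xCT and LAT1 to the cell surface. It had 4128, 7262 and 6369 in shControl and 7956, 6865 and 7711 in shRNF25, with shControl replicate 1 far below the rest and an adjusted p of 0.190 (limma). Its log2 fold change was 0.38, but 0.14 without that library and 0.58 after quantile normalization. SLC7A5 (LAT1), the leucine and large neutral amino acid exchanger, had 10928 to 15384 in shControl and 12444 to 13235 in shRNF25, so that the shRNF25 range lay inside that of the controls. SLC7A1 (CAT1), the importer of arginine and lysine, spanned 2894 to 2956 in shControl and 2758 to 2892 in shRNF25. Its groups did not overlap, but the log2 difference was only -0.06 (adjusted p = 0.696, limma).

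SLC1A5 (ASCT2), a glutamine exchanger, had log2 fold change 0.07, and SLC6A9 (GLYT1), a glycine importer, had 0.30, or 0.17 without shRNF25 replicate 1. SLC38A2 (SNAT2), a sodium-coupled importer that is induced by amino acid shortage, had 10926, 7351 and 8483 in shControl and 11389.8, 10276 and 9891 in shRNF25. Its log2 fold change was 0.25 (adjusted p = 0.256, limma), and its size depended on the controls and the scaling. Without shControl replicate 1 it was 0.41 (adjusted p = 0.00996, limma), without shControl replicate 2 it was 0.12 (adjusted p = 0.558), and after quantile normalization it was 0.48 (adjusted p = 0.0523). The median log2 fold change of the 7 transporters was 0.25, beside -0.01 for all tested genes.

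**Figure D3:**
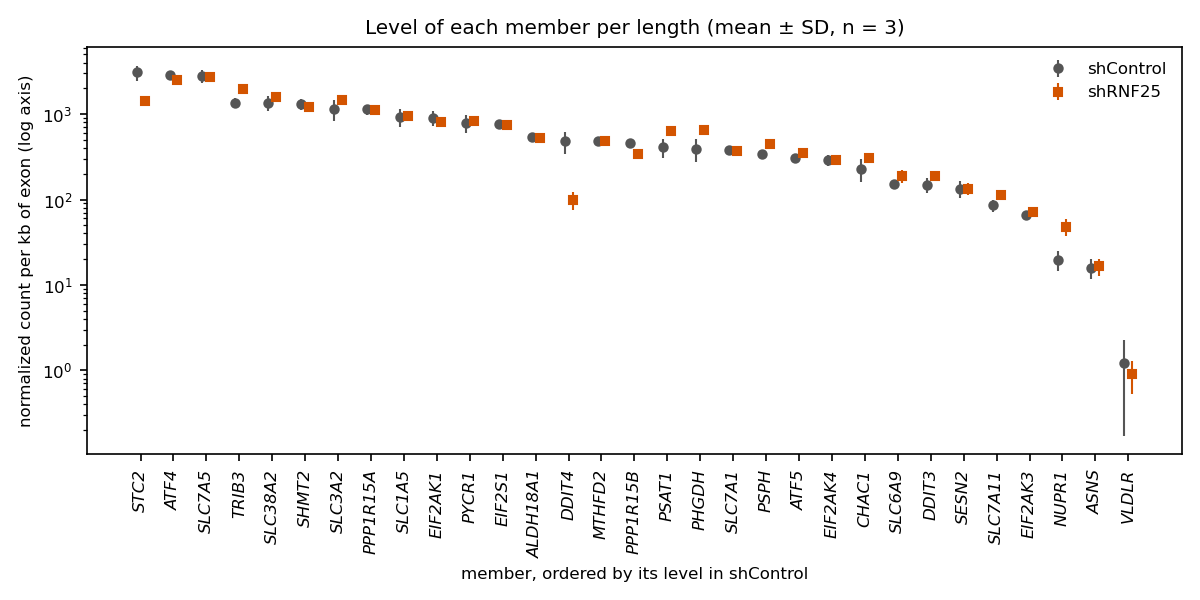
Normalized count per kb of exon (log axis, mean ± SD, n = 3) of the 31 members in shControl (grey circles) and shRNF25 (orange squares), ordered by the control level. STC2, ATF4 and SLC7A5 lead in shControl, and the lowest of the whiskers of VLDLR nears 0.

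To set the members' levels side by side, counts were divided by the exon length of each gene in GENCODE 29. STC2 had the highest level per length in shControl, 3093 normalized counts per kb, followed by ATF4 at 2882 and SLC7A5 at 2826, and these 3 differed by less than the SD of STC2, which was 619. TRIB3 followed at 1360, SLC38A2 at 1351 and SHMT2 at 1320, again within their spread. In shRNF25 the level of STC2 per kb was 1410, below ATF4 at 2521 and SLC7A5 at 2715. NUPR1 at 19.7 per kb, ASNS at 15.9 and VLDLR at 1.22 had the lowest values in shControl. The value of ASNS rests on how reads shared with other genes were assigned, so its place in this order is uncertain. The exon length counts the exons of every annotated transcript, whichever of them these cells use.

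ATF4 and C/EBP factors bind a composite element, the C/EBP-ATF response element, and its core TGATGNAA was searched on both strands in the RefSeq promoter windows, which run from 250 bases before to 50 bases after a gene's start (GRCh38.p14). Windows were found for 25 of the 31 members, and not for EIF2AK1, NUPR1, PSPH, PYCR1, SHMT2 and SLC7A11. The core lay in 6 of the 36 windows of these 25 genes, or 16.7%, and in 3.62% of all 35116 windows. The 4 matches that lie before the start are shown because they let the element be compared with the expression result, with the core in capitals and 11 bases on either side in lower case, read along the gene's strand.
ASNS: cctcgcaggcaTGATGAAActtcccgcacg
SLC1A5: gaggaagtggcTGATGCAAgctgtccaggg
CHAC1: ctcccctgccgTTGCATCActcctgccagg
PPP1R15B: cccgccccggcTGATGCAAcctcacgctgc

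The ASNS core, known as part of its nutrient-sensing response element, begins 68 bases before the start and the shown stretch lies at chr7:97872458-97872487 on the minus strand. The SLC1A5 core begins 97 bases before the start (chr19:46784893-46784922, minus strand), and the PPP1R15B core 227 bases before it (chr1:204412026-204412055, minus strand). The CHAC1 core is on the opposite strand of its gene and begins 209 bases before the start (chr15:40953251-40953280, plus strand of the gene). Of these 4 genes, PPP1R15B fell and the other 3 did not pass the threshold. The other 2 matches, in SLC3A2 and SLC7A1, lie after the start, and neither gene passed. None of the 3 higher members with a window (TRIB3, PHGDH and PSAT1) held the core in it, and sites outside these windows were not searched.

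**Figure D4:**
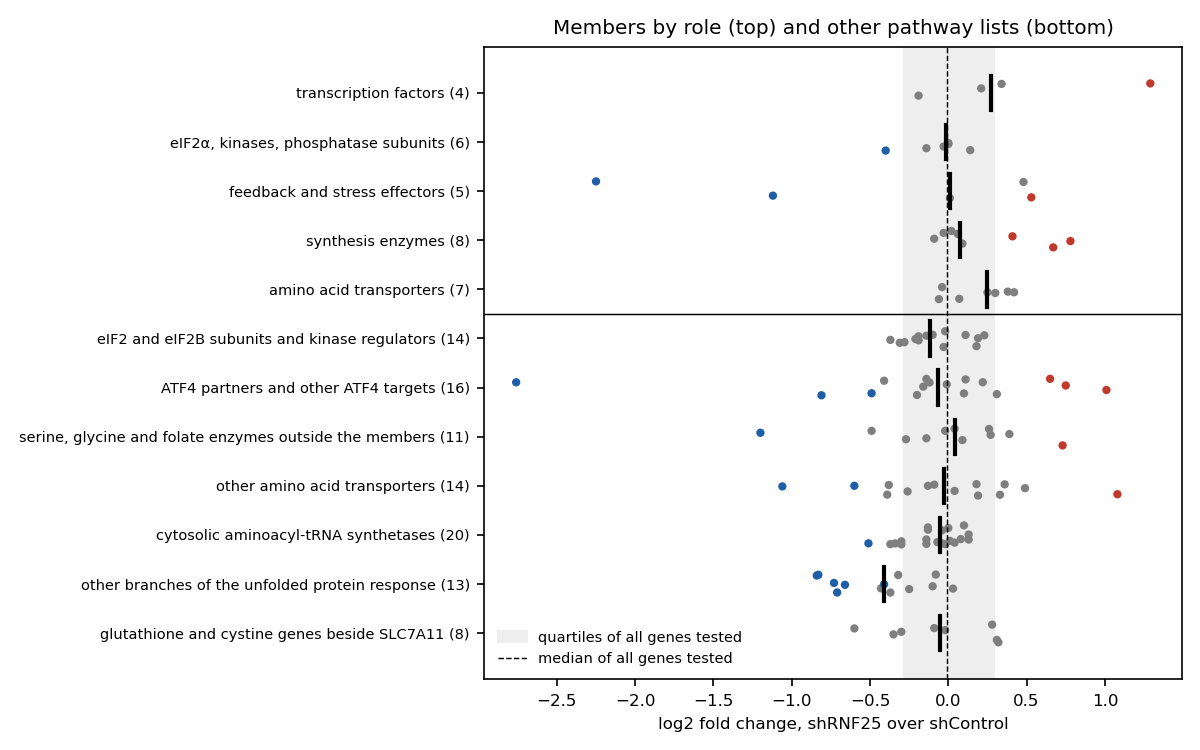
Log2 fold change (shRNF25 over shControl) of the members by role (above the line) and of the other genes of the pathway by list (below it), 1 point a gene and black bars for medians; red and blue mark genes higher and lower past the threshold, grey shading the quartiles of all tested genes. The list of other branches of the unfolded protein response sits to the left, with a median of -0.41.

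Further genes of the pathway were read from 7 lists of 102 symbols, of which 101 had a row and 96 were tested. Of the 96, 5 were higher and 13 lower, beside 10.5% and 10.8% of all tested genes, and their median log2 fold change was -0.10. A list of 14 genes held the rest of eIF2, its exchange factor eIF2B, a further eIF2α kinase and regulators of the kinases. Of the 14, 0 passed with limma, edgeR called 0 and DESeq2 called IMPACT, an inhibitor of GCN2. At an unadjusted p below 0.05 there were 3, in both directions, and the share of all tested genes at that level was not counted. The further kinase, PKR (EIF2AK2), had 4565, 2505 and 2003 in shControl and 3179, 3349.6 and 3121 in shRNF25 (adjusted p = 0.649, limma). Of the 20 cytosolic aminoacyl-tRNA synthetases, a group with many known ATF4 targets, 1 was lower (FARSB, -0.51) and none was higher, and the median was -0.05. Most genes of these eIF2 and synthetase lists thus gave no call, as did most tested genes, of which 21.3% were called. Their log2 fold changes were below 0 for 10 of 14 and 14 of 20 genes, beside 8478 of 16554 for all tested genes.

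Of 16 tested partners and other targets of ATF4, 3 were higher and 3 lower, beside 10.5% and 10.8% of all tested genes. JDP2, a repressive partner in the same leucine-zipper family, was higher by 1.01 on the log2 scale (adjusted p = 0.00263, limma), with 136.0, 131.3 and 116.6 in shControl and 308.9, 235.5 and 235.4 in shRNF25. ATF3, a stress-induced factor, was higher by 0.75 (adjusted p = 0.0419), and TXNIP, a thioredoxin-binding protein that restrains glucose uptake, by 0.65 (adjusted p = 0.00488). CEBPB, a DNA-binding partner of ATF4, had a log2 fold change of -0.81 (adjusted p = 0.00167, limma). EIF4EBP1 was also lower, by less than 1.5-fold, with a log2 fold change of -0.49 (adjusted p = 0.0277, limma). NDRG1, which is also a well-known hypoxia-induced gene, had 16694, 16321 and 24425 in shControl and 3429, 2733 and 2295 in shRNF25, a log2 fold change of -2.76 (adjusted p = 3.48e-05, limma). The median of the list was -0.06.

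Of 14 tested amino acid transporters outside the members, 1 was higher and 2 were lower, beside 10.5% and 10.8% of all tested genes. SLC1A4 (ASCT1), an exchanger of alanine, serine and cysteine, rose. It had 340.5, 408.4 and 365.9 in shControl and 804.6, 772.1 and 776.8 in shRNF25, a log2 fold change of 1.08 (adjusted p = 0.000376, limma). SLC6A14 and the taurine importer gene SLC6A6 fell, with log2 fold changes of -1.06 and -0.60. Of 11 further enzymes of serine, glycine, folate, proline and glutamine metabolism, GLUL, the glutamine synthetase gene, rose by 0.73 (adjusted p = 0.00153, limma), and the mitochondrial folate gene ALDH1L2 fell, with a log2 fold change of -1.20 on counts of 13.3 to 56.4. Of 8 further genes of glutathione and redox balance, 0 passed with limma, beside 21.3% of all tested genes. Of the 8, 5 had an unadjusted p below 0.05 with limma, in both directions, and the share of all tested genes at that level was not counted. Past the threshold, edgeR called GCLC and DESeq2 called GCLC and HMOX1.

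The other branches of the unfolded protein response, which run through IRE1 and ATF6, gave calls in 1 direction. Of 13 genes tested, 6 were lower and 0 higher past the threshold with limma, beside 10.8% and 10.5% of all tested genes. For 9 of the 13 the groups were apart without overlap, beside 42.5% of all tested genes, and the median log2 fold change was -0.41. MANF, a secreted chaperone-like factor, had 4999, 4071 and 3064 in shControl and 2101, 2411 and 2134 in shRNF25 (log2 fold change -0.84, adjusted p = 0.0078, limma). ERN1, the gene of IRE1α, had a log2 fold change of -0.83, HSP90B1 (GRP94) of -0.73 and PDIA4, a disulfide isomerase, of -0.71. In the same libraries PERK mRNA (EIF2AK3) did not pass the threshold.

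**Figure D5:**
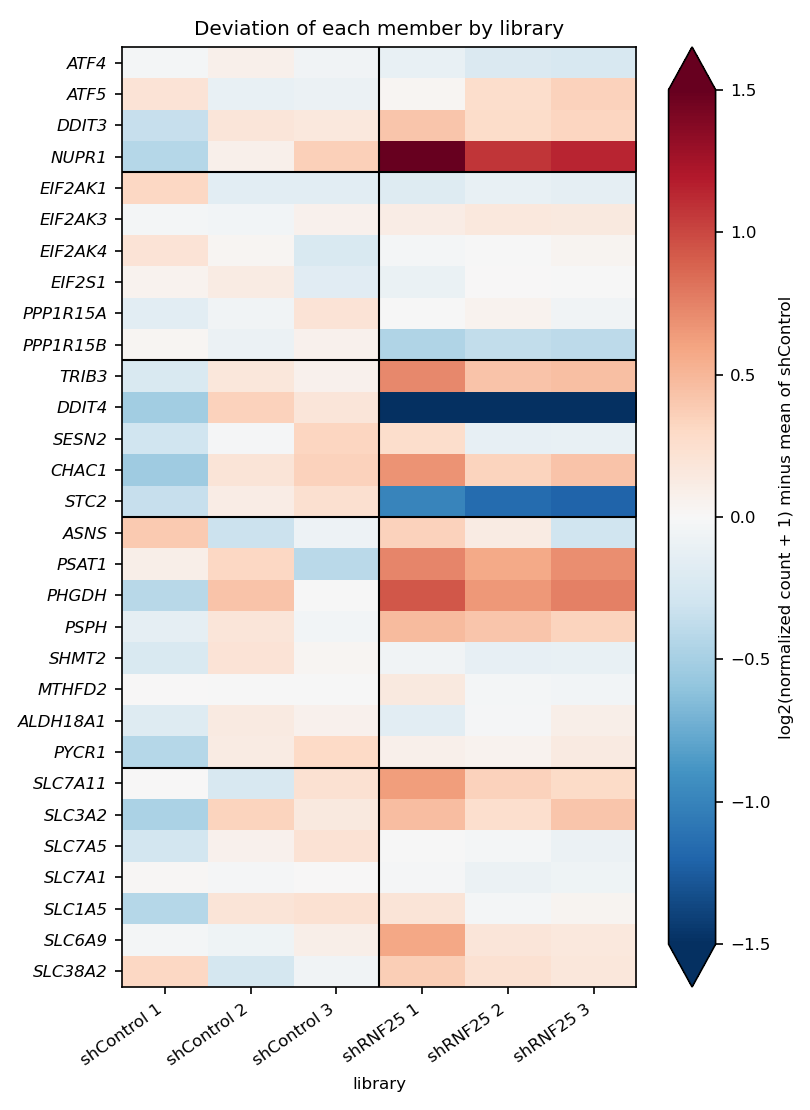
Colour shows log2(normalized count + 1) of each tested member in each library minus the mean of the 3 controls (red above, blue below, cut at 1.5). The column of shControl replicate 1 holds many blue cells among effectors, enzymes and transporters, and the columns of the 3 shRNF25 libraries resemble each other.

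The members varied more between the controls than between the knockdown libraries. The coefficient of variation was larger in shControl than in shRNF25 for 27 of the 31 members, with medians of 16.9% and 7.62%. The same comparison was not made over all genes, so this spread is not shown to be particular to the members. shControl replicate 1 was the lowest control for 17 members, and its median deviation from the control mean was -0.15 on the log2 scale, against 0.08 and 0.06 for shControl replicates 2 and 3. In the knockdown group, replicate 1 was the highest for 21 members, with a median deviation of 0.13 against 0.05 and 0.06. The labels give no batch. The control library names do not share 1 pattern as the knockdown names do, and any batch lying between the groups could not be separated from the knockdown. The part of this spread in the missed calls was not tested.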

How the data were processed

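The deposited table holds normalized counts per gene symbol, a signal that the authors made from read counts with 1 scaling factor per library. The submitters' processing notes name fastp, HISAT2, HTSeq and GRCh38; the paper names a stranded kit with ribosomal RNA depletion and DESeq2, and the annotation release and the strand setting are not given in the sources used here. All values were whole multiples of 1 step per library, so whole reads were recovered for 100% of values (within 0.1 reads). The deposited scaling was kept. Values were compared as log2(value + 1) with limma 3.58.1 (lmFit, eBayes with a trend) in R 4.3.3, with the group as the only term, for genes with at least 10 in at least 3 libraries, and p-values were adjusted over all 16554 genes. Alternatives tried: a pseudocount of 5 or 0.5, no filter or a minimum of 50, rescaling by the median ratio of genes averaging 100 or more, normalization to common quantiles, edgeR 4.0.16 and DESeq2 1.42.0 on recovered reads, library weights by group, the replicate number as a block, and each library left out. The fits were also run on simulated data with the same spread in both groups, unlike the members here, and no conclusion is drawn from that run. Positions, exon lengths and shared words come from GENCODE 29, matched by symbol. The members and lists were chosen with earlier results of these data known. Named genes were all members and, per other list, at most 4 in each direction past the threshold and 1.5-fold. IMPACT, EIF2AK2, EIF4EBP1, FARSB, GCLC, HMOX1 and AC079781.5 were named after their values were seen.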

Additional observations from a re-analysis of the deposited data

How the results depend on the processing

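Of the 8 members called, 3 stayed past the threshold in all 16 alternatives and 5 lost it in at least 1, and 0 changed direction. Leaving out 1 library gave 1 to 8 higher members and 2 to 3 lower members, medians of 0.027 to 0.169, and log2 fold changes of RNF25 from -1.34 to -1.15. The highest count, 8, came without shControl replicate 1, and the lowest, 1, came without each shRNF25 library. Without shControl replicate 2 or 3, fits with equally few samples, the count of higher members was 5. The cause of this difference was not tested. A fold change of at least 1.5 left 3 higher members by construction. The median of the members was 0.18 after quantile normalization, against 0.06, and the cause was not tested. Of the 22 members not called, 3 were called in some alternative (ATF5, SLC38A2 and SLC7A11) and 13 changed sign in at least 1, none of those 13 past the threshold. The causes of these changes were not tested. After quantile normalization the log2 fold change turned sign for ALDH18A1 (0.061), ASNS (-0.056), EIF2AK1 (0.011), EIF2S1 (0.117), PPP1R15A (0.141), SHMT2 (0.087), SLC7A1 (0.071) and SLC7A5 (0.181). After rescaling on the median ratio the log2 fold change turned sign for ALDH18A1 (0.037), EIF2S1 (0.035), PPP1R15A (0.062), SLC7A1 (0.008) and SLC7A5 (0.022). With edgeR the log2 fold change turned sign for PPP1R15A (0.020). With DESeq2 the log2 fold change turned sign for PPP1R15A (0.001). With 1 library left out, the log2 fold change crossed 0 for ALDH18A1 (-0.125 to 0.036), ASNS (-0.105 to 0.254), EIF2AK1 (-0.224 to 0.011), EIF2AK4 (-0.114 to 0.102), EIF2S1 (-0.118 to 0.032), MTHFD2 (-0.040 to 0.057), PPP1R15A (-0.084 to 0.10), PYCR1 (-0.125 to 0.237), SESN2 (-0.143 to 0.170), SHMT2 (-0.208 to 0.007), SLC1A5 (-0.141 to 0.183) and SLC7A5 (-0.184 to 0.063). VLDLR (4 to 21 reads per library) and ASNS (54 to 97) had few reads, so changes in these genes were hard to detect. For ASNS the number of reads also rests on how reads shared with other genes were assigned, which is not given in the sources used here.

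Same-numbered libraries of the groups did not deviate together (correlations of -0.0638, -0.0874 and 0.0471). These values gave no sign of pairing by number, but with 3 libraries per group they cannot exclude it. With the replicate number as a block, 4 members were higher and 2 lower, since PSPH (adjusted p = 0.0694, limma) and PPP1R15B (adjusted p = 0.0563) lost their calls, and all genes gave 1557 higher and 1527 lower calls against 1740 and 1785. Over all genes, leaving out 1 library gave 768 to 2612 higher and 860 to 2986 lower calls, the most without shControl replicate 1.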
